A study of Mus musculus with 4 samples.

Results

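In NIH-3T3:Per2-Luc fibroblasts, a mouse fibroblast line that carries a luciferase reporter driven by the promoter of the clock gene Per2, 59 genes had probes that moved in opposite directions 4 h after a pulse of hydrogen peroxide. The genes were chosen by these 4 h values themselves. A gene entered when at least 2 of its probes were well above background on both the 4 h and the control array, with 1 probe at a log2 ratio of at least 0.6 and another at -0.6 or lower. Of 30175 gene names on the array, 3688 had 2 or more such measured probes, so the 59 genes were 1.60% of those that could have entered. The study pulsed the cells with 5 mM H2O2 for 10 min (the cOS-pulse, for critical oxidative stress) and took RNA 4 h, 20 h and 32 h afterwards. Control cells, labelled 0 mM and 4 h, received fresh medium without H2O2. The series holds no control array at 20 h or 32 h. A level at those times that matches or departs from the control therefore cannot separate the pulse from time after the medium change. All 4 groups were the same reporter line without any genetic deletion, and each group was 1 one-color Agilent array, so no comparison below has a replicate and none was tested. The ± values are the scanner's own spot errors carried onto the log2 scale, and they leave out differences between cultures.

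All levels below are log2 signals of a probe relative to the 75th percentile of its array, and they compare arrays for 1 probe, never 1 probe with another. Between 52.7% and 59.1% of the 39429 probes were well above background on each array. All 12 fibroblast markers looked up, among them the collagen gene Col1a1 and the mesenchymal filament gene Vim, were well above background on each of the 4 arrays. Of the markers of other cell types, 3 of 3 endothelial, 2 of 4 leukocyte, 1 of 4 epithelial and 0 of 2 hepatocyte ones were so in the control, and 3, 2, 1 and 1 at 4 h. Their part in the results was not tested. The probe of a gene with the highest ratio is called its rising probe and the probe with the lowest ratio its falling probe. These names describe the ratio that chose the gene and carry no test.

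A gene rarely gives a single RNA. Alternative promoters, splicing and polyadenylation sites yield transcripts that share some exons and differ in others, and a short probe reports only the transcripts that hold its own bases. A polyadenylation site inside an intron gives a truncated transcript with a tail of its own, and the cleavage and polyadenylation machinery decides between such early sites and the distal one, with the hexamers AATAAA and ATTAAA as its best known signals. Arrays of this design place most probes near annotated 3' ends, so 2 probes of a gene frequently sit in the last exons of 2 transcripts. No gene models of the mouse build used by the files (mm9) were at hand, and probes were therefore not assigned to exons, introns or UTRs. Each probe is described by its coordinates, its strand and the transcript it was designed on.

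The following probes carry the pairs described first. For each, 30 of its 60 bases are given 5' to 3' in the sense of the transcript, with the mm9 position of the whole probe, and capitals mark a polyadenylation hexamer.
Cstf3 falling probe, transcript variant 3, chr2:104449520-104449579, plus strand: ttggagttgcaacaacATTAAAacagtttc
Cstf3 rising probe, transcript variant 1, chr2:104505308-104505367, plus strand: ttttcaagggtgtcttgtatgtgccacttg
Dido1 falling probe, transcript variant 1, chr2:180415861-180415920, minus strand: cgatttcacaaacagttgttcccctgattt
Dido1 rising probe, transcript variant 3, chr2:180393086-180393145, minus strand: gcaaatatgtttgatagttccttttatatt
Hbp1 falling probe, transcript variant 2, chr12:32614327-32614386, minus strand: gatggcagatatgtcagctattttatgcta
Hbp1 rising probe, transcript variant 1, chr12:32611387-32611446, minus strand: gctgtaaaattgatttacacttgttaaaca
Zfp467 falling probe, transcript variant 1, chr6:48386636-48386695, minus strand: cattgttgaaccAATAAAgtctgtgaaccc
Zfp467 rising probe, transcript variant 4, chr6:48377799-48377858, minus strand: cctgatgcctgctcttcagtttctgtctag
Luc7l3 falling probe, chr11:94149240-94149299, minus strand: tgtatgtttgtgtgcttttgtgtatatgct
Luc7l3 rising probe, chr11:94158396-94158455, minus strand: gaagcaagaaagagaggaaagagaaaaaga
Trib1 falling probe, chr15:59485136-59485195, plus strand: tttgttcacctaacttctctgtcaggacta
Trib1 rising probe, chr15:59487475-59487534, plus strand: tgaagcttctcagagaaactgccgaaagtt

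Across the 59 genes the rising probes had 4 h log2 ratios from 0.64 to 2.72 (median 0.84), and the falling probes from -2.26 to -0.62 (median -0.87). The most risen was the rising probe of Chmp3, 6.61-fold over the control, and the most fallen was the falling probe of Zfp467, 4.80-fold under it. In 11 genes both probes were at least 2-fold away from the control. The difference between the 2 ratios of a gene, called the gap change below, ran from 1.29 to 4.11 with a median of 1.94, against 0.25 over all 3688 genes. In each of the 59 the gap change was at least 3.08 times its own spot error. The rule itself sets a gap change of at least 1.2, and its spot errors ran from 0.22 to 0.50. The multiple and the median therefore describe the choice of genes and lend it no support. Among all 20392 measured probes, 21.0% had a ratio of at least 0.6 and 16.1% a ratio of -0.6 or lower.

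Which genes passed the threshold depended on where the zero of the ratio was set, whereas a gap change does not depend on it. Scaling by the array median lowered the ratios of all measured probes by 0.36 at their median, and scaling by the spike-in probes lowered them by 0.40. With the first, 46 genes entered and 22 of the 59 were among them, and with the second 47 entered and 21 of the 59. Under all 8 settings of scaling, background and outlier handling, 17 of the 59 kept both probes past the threshold, and in all 59 the 2 probes kept opposite signs. Scalings that subtract a constant from each array lowered every ratio by 0.40 or less, which is smaller than the threshold. Under them no sign could turn, so the kept signs lend the choice of genes no support. Only settings that change probes unequally, such as quantile normalization or normexp, could have turned a sign. Among those 17 were Trib1, Agbl3, Lhx6, Dido1, Chmp3, Tgfb1i1, Zfp467, Stau2, Hbp1, Slc38a6, 2210404J11Rik, Cstf3, Pttg1, Tsc22d4, Fastk and Raph1. The probes were also mostly dim. In the control, 42 of the 59 rising and 37 of the 59 falling probes lay below the median of the probes well above background, and normexp background correction, which compresses ratios of dim probes, left 29 of the 59. Both probes were above the median signal in only 5 of the genes, among them Dido1, Cstf3, Ncaph2 and Dnlz, out of 1230 genes with 2 such probes. The part of low signal in the opposite ratios was not tested.

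**Figure D1:**
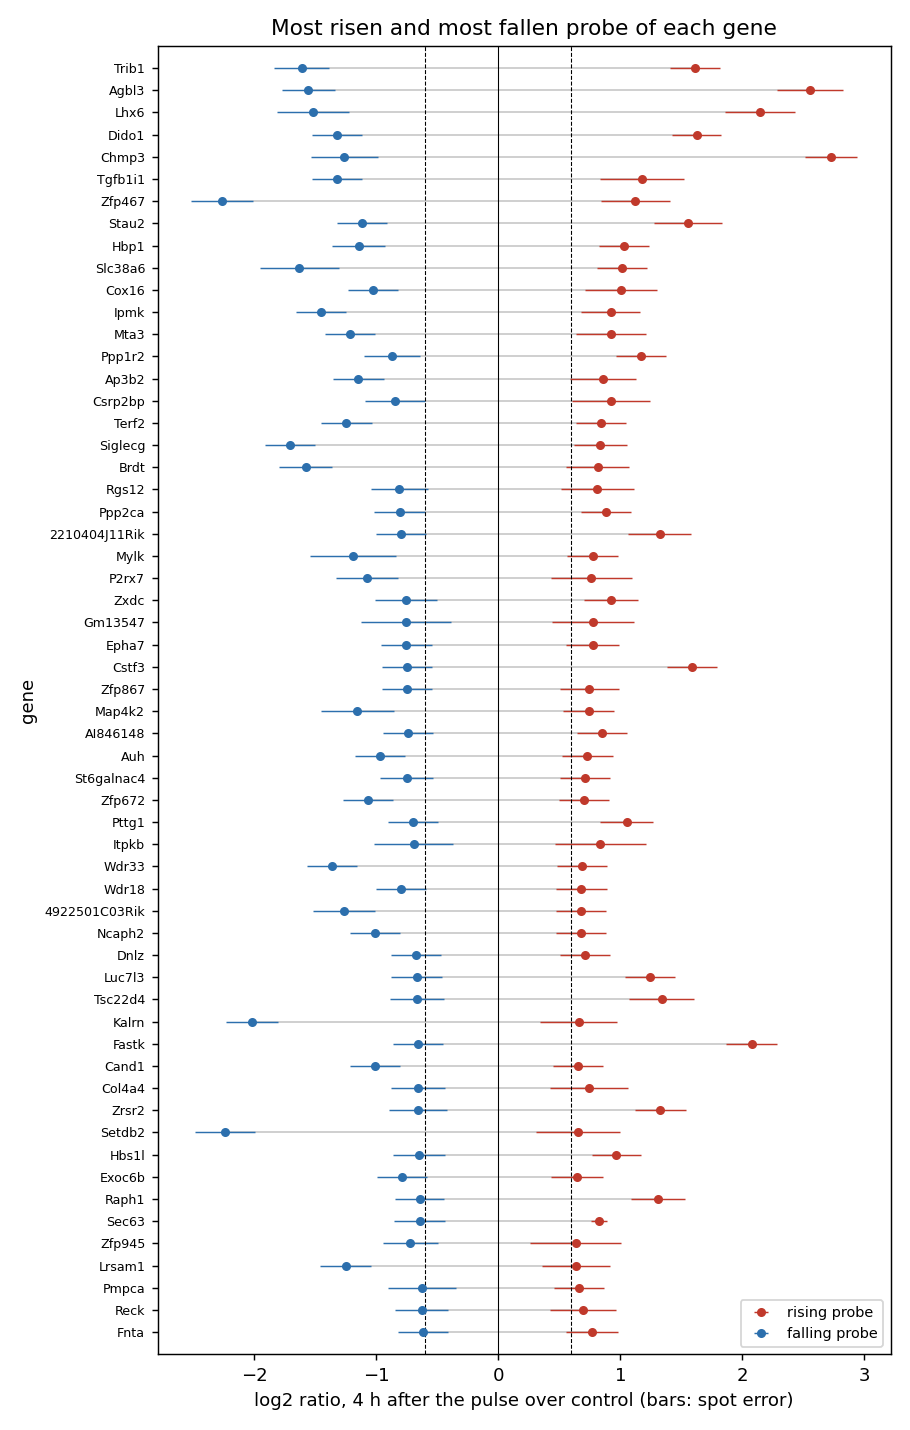
The log2 ratio of 4 h over control (x axis) of the rising probe (red) and the falling probe (blue) is drawn for 58 of the 59 genes (y axis), ordered by the smaller of the 2 sizes. Bars are spot errors, dashed lines mark the thresholds of 0.6 and -0.6, and every gene drawn lies past both because these values chose it.

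Among the genes of mRNA 3' end formation, Cstf3 encodes a subunit of the cleavage stimulation factor. Wdr33 encodes a subunit of the cleavage and polyadenylation specificity factor that helps bind the hexamer. The rising probe of Cstf3, designed on variant 1, was at 0.83 in the control, 2.42 at 4 h, 0.83 at 20 h and 0.71 at 32 h. Its falling probe on variant 3, the hexamer-bearing probe printed above, was at 0.60, -0.15, 0.01 and 0.02 on the same arrays. The ratios at 4 h were 1.59 ± 0.20 and -0.75 ± 0.20, and the falling probe lay 55.8 kb upstream. The rising signal was near its 4 h control level on both later arrays, whereas the falling one was 0.59 and 0.58 below its own.

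Wdr33 showed the same arrangement. Its rising probe on variant 1 went from -0.00 in the control to 0.68 at 4 h and was at 0.07 and 0.06 later. The falling probe, on variant 4 and 73.1 kb upstream, went from 0.06 to -1.30 and was at -0.06 and 0.00 later. Both later arrays were thus within 0.12 of the control for either probe, while the 4 h ratios were 0.69 ± 0.20 and -1.36 ± 0.21. Wdr33 passed the threshold under 4 of the 8 settings of scaling, background and outlier handling, and Cstf3 under all 8.

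Of the 29 cleavage and polyadenylation factors listed, 9 had 2 or more measured probes and these 2 were among the 59 genes. That is 22.2% of the 9, against 1.60% of all genes with 2 or more measured probes. The list's median gap change was 1.04, and 4 of its 9 genes had a gap change of at least 1.2, against 7.78% of all genes with 2 or more measured probes. The other two were Cstf2, the RNA-binding partner of Cstf3, with a highest ratio of -0.02 and a lowest of -1.42, and Rbbp6, a RING-finger protein of the same machinery, at 1.5 and -0.21. In Pcf11, a termination factor, both probes were up, at 1.85 and 0.81. Cpsf4 and Fip1l1 also had both ratios above 0.6, while in Cstf1 and Cpsf3l the 2 probes differed by 0.67 and 0.39. The rule gives each of the 59 genes a gap change of at least 1.2, so Cstf3 and Wdr33 were bound to be among the 4. The list was also chosen with earlier results of these data known. No p-value was given for the list, and with 1 array a condition its share is a description.

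Pairs designed on 2 different RefSeq transcripts made up 16 of the 59 genes. Among them were Cstf3, Wdr33, Lhx6, Dido1, Zfp467, Hbp1, Terf2, Brdt, P2rx7, Zxdc, Epha7, Zfp672, Tsc22d4, Zrsr2 and Hbs1l. In 13 of the 16 the rising probe lay 3' of the falling probe, the exceptions being Lhx6, Brdt and Epha7. Over all genes whose highest and lowest probes were designed on 2 different RefSeq transcripts, the higher one was 3' in 174 of 370. The count was 41 of 57 when genes were taken by a gap change of at least 1.2 whatever the signs. These 57 include all of the 16, so this is not a separate count. The count was only 6 of 12 when the 20 h array stood in for the control, and 10 of 15 with the 32 h array.

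Dido1, a gene of a PHD-finger chromatin protein with a long and a short form, had a variant 3 probe at 1.73, 3.36, 1.75 and 1.78 on the control, 4 h, 20 h and 32 h arrays. Its falling probe, designed on variant 1 and 22.8 kb upstream, was at 0.37, -0.95, 0.62 and 0.47. A further probe, also designed on variant 1 but still farther 5', went up with the variant 3 probe, by 1.29 ± 0.20. So 2 probes designed on 1 transcript parted in this gene, and all 3 were within 0.26 of the control at 20 h and 32 h.

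Hbp1, an HMG-box repressor of cell cycle genes, was measured by a variant 1 probe at 2.96, 3.99, 3.23 and 3.17 and by a variant 2 probe at -1.47, -2.61, -1.10 and -1.20. The 4 h array was the highest of the 4 for the first and the lowest for the second. Terf2, which encodes a shelterin protein that protects telomere ends, had a variant 1 probe at 0.72, 1.57, 0.99 and 0.89. Its variant 2 probe, 5.6 kb upstream, was at -0.48, -1.73, -1.03 and -1.11 and did not return to the control level. A second variant 1 probe had a ratio of 0.63 ± 0.23 at 4 h, on the side of the rising probe.

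The zinc-finger gene Zfp467 had 4 measured probes. The falling one, with AATAAA in its last 30 bases, was at -1.27, -3.53, -0.26 and -0.25, which is lowest at 4 h and about 1.02 above the control on both later arrays. The rising variant 4 probe was at -3.89, -2.77, -3.23 and -3.08. The remaining variant 1 probe had a 4 h ratio of -0.77 ± 0.23 and the remaining variant 4 probe one of 0.64 ± 0.31, so the 2 probes of each variant took the same side.

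Lhx6 encodes a LIM-homeobox factor best known from interneurons. Its falling probe on variant 1 was at -2.69, -4.20, -3.25 and -3.11. The rising probe on variant 2 went from -4.21 to -2.06 and was not well above background at 20 h or 32 h. Another probe, also on variant 1 and 174 bases from the falling one, was at 2.71, 3.14, 1.59 and 1.65, a ratio of 0.43 ± 0.20 at 4 h. Brdt, a bromodomain gene known from the testis, had a variant 2 probe at -3.28, -2.47, -2.94 and -2.82 and a variant 1 probe at -1.32, -2.90, -1.06 and -1.07. Neither pair exceeded the array's 75th percentile on any array, whereas the remaining Lhx6 probe did so on all 4.

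Tsc22d4, a leucine-zipper regulator, had 4 measured probes over 20.5 kb. From 5' to 3' their 4 h ratios were -0.66 ± 0.22, 0.20 ± 0.24, -0.61 ± 0.20 and 1.34 ± 0.26. The last, on variant 1, was the rising probe at -3.82, -2.48, -3.63 and -3.23, and both probes designed on variant 2 were down at 4 h and within 0.11 of the control afterwards.

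**Figure D2:**
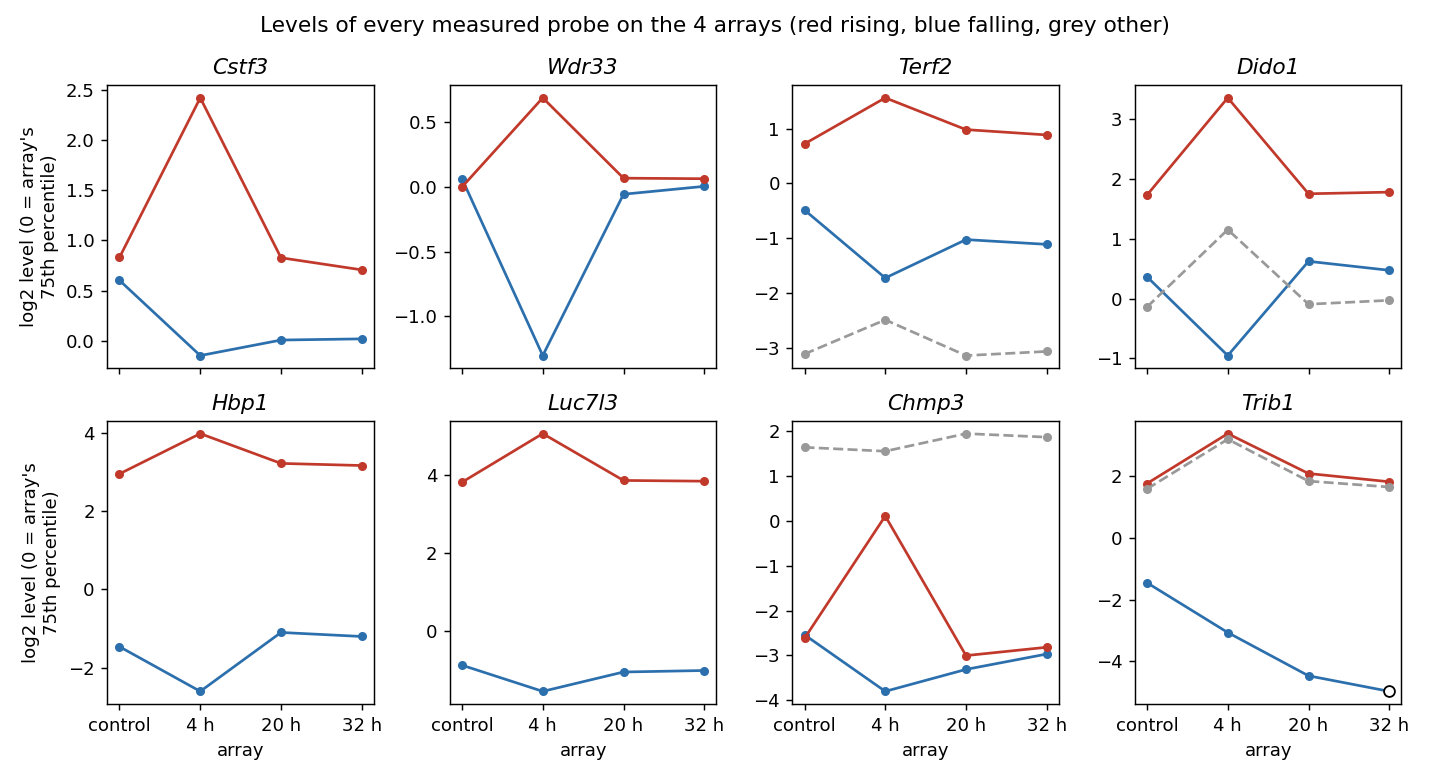
Log2 levels (y axis, 0 is the array's 75th percentile) of every measured probe of 8 genes are drawn on the control, 4 h, 20 h and 32 h arrays (x axis). Red is the rising, blue the falling and dashed grey any other probe, and an open symbol marks a value not well above background. Heights of different probes cannot be compared. In Wdr33, Dido1 and Luc7l3 the lines part at 4 h and return, while in Trib1 the falling probe keeps going down.

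Of the genes that act on RNA, besides Cstf3 and Wdr33, Luc7l3, Zrsr2, Stau2, Hbs1l and Fastk were among the 59. Luc7l3 encodes a homolog of a U1 snRNP-associated splicing factor. Its rising probe was bright, at 3.81, 5.05, 3.85 and 3.83, and its falling probe, 9.2 kb downstream on an Ensembl transcript, was at -0.86, -1.53, -1.04 and -1.0. In this gene the probe nearer the 3' end was therefore the falling one, and both were within 0.18 of the control on the later arrays. Of 42 splicing factors with 2 or more measured probes, Luc7l3 alone entered, or 2.38% against 1.60% of all genes. A gap change of at least 1.2 was found in 5 of the 42, against 7.78% of all genes. The rule had placed Luc7l3 among these 5. Srsf1, a splicing activator that controls its own mRNA, fell just short.

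Zrsr2, which recognizes the 3' splice site of minor introns, had a variant 1 probe at -1.70, -0.38, -1.63 and -1.71 and a variant 2 probe 14.0 kb upstream at -2.45, -3.10, -2.60 and -2.62. Stau2, a double-stranded RNA-binding protein of RNA transport, had its rising probe 114.9 kb downstream of the falling one. That rising probe was at -4.0, -2.44, -3.51 and -3.78, and the falling probe at -0.29, -1.40, -0.20 and -0.33. Another probe, designed on the same transcript as the rising one but 1.2 kb from the falling one, followed the falling one with a ratio of -0.73 ± 0.21.

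Hbs1l encodes a factor that rescues stalled ribosomes and, from a shorter variant, a different protein. The full-length variant 1 probe was at 1.75, 2.72, 1.96 and 1.91. Both probes on variant 3, which lie 57.9 kb and more upstream, were down at 4 h, by -0.65 ± 0.21 and -0.61 ± 0.25. They were still below the control at 20 h, at ratios of -0.68 and -0.75. In Fastk, whose product belongs to a family of mitochondrial RNA regulators, the rising probe went from -1.65 to 0.42 at 4 h and was at -1.49 and -1.48 later, a 4.22-fold change at 4 h. Its falling probe, 2.6 kb upstream, was at 2.92, 2.26, 3.05 and 3.02. In 6 of these 7 RNA genes the rising probe was the 3' one, as in 34 of all 59, against 42.8% of all genes of 1 locus. The 7 were grouped by role after they were known, so the count is a description.

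Trib1, a pseudokinase that acts as a scaffold for ubiquitin ligases, had the largest opposition of all. Its rising probe was at 1.75, 3.37, 2.08 and 1.81, and a second probe of the same transcript, 187 bases away, at 1.58, 3.19, 1.83 and 1.64. The falling probe, 2.3 kb upstream on an Ensembl transcript, was at -1.46, -3.07 and -4.47 and was not well above background at 32 h. The ratios of the 2 probes of the RefSeq transcript differed by less than their spot errors at every time, while the upstream probe was highest in the control and lower at 4 h and at 20 h.

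Chmp3 encodes a subunit of the ESCRT-III membrane scission complex. The rising probe went from -2.62 to 0.11 at 4 h and was at -3.00 and -2.82 later, while the falling probe, 1.8 kb upstream, was at -2.54, -3.80, -3.31 and -2.97. Another probe of the gene stayed between 1.55 and 1.94 on all 4 arrays. The opposite movement in Chmp3 was thus seen by 2 of its 3 probes.

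Agbl3, a tubulin deglutamylase gene, had the widest gap change at 4.11 ± 0.35. Its rising probe went from -3.79 to -1.24 and was not well above background at 20 h or 32 h. The falling probe, 72.4 kb upstream, was at -1.20, -2.76, -2.30 and -2.24 and did not return to the control level. In Tgfb1i1, which encodes the focal adhesion protein Hic-5, the falling probe was at 1.09, -0.23, 0.97 and 0.73. Its rising probe was dim throughout, at -4.39, -3.22 and -4.51, and was not well above background at 32 h.

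Slc38a6, an amino acid transporter gene, had a rising probe at -0.84, 0.18, -1.16 and -0.91 and a falling probe, 39.6 kb downstream, at -2.79, -4.42, -3.38 and -3.65. Cox16 encodes an assembly factor of cytochrome c oxidase. Its falling probe was designed on an Ensembl transcript 111.6 kb downstream, at 1.69, 0.66, 2.12 and 2.16. Its rising probe was near background, at -4.03, -3.02 and -4.53 and not well above it at 32 h. Another Cox16 probe, at 2.85 in the control, changed by -0.28 ± 0.20 at 4 h and joined neither side.

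Mta3, a subunit of the NuRD chromatin remodeling complex, had a falling probe at 1.0, -0.22, 0.80 and 0.91 and a rising probe 30.9 kb downstream at -3.83, -2.91, -3.31 and -3.19. Another probe 78.1 kb upstream of the falling one was also down, by -0.89 ± 0.27. Csrp2bp, now named Kat14, encodes an acetyltransferase of the ATAC complex. It had 4 measured probes, of which 2 near the 3' end changed by -0.13 and -0.11 at 4 h. The opposite ratios of 0.92 ± 0.32 and -0.84 ± 0.25 came from the other two. In Ap3b2, an adaptor subunit gene known from neurons, the falling probe was at 0.07, -1.07, -0.16 and -0.33, and the rising one at -3.75, -2.89 and -4.35, not well above background at 32 h.

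The gene listed as 2210404J11Rik, now Ermard, had 4 measured probes. Its falling probe was at -0.02, -0.81, 0.09 and -0.03 and the rising probe, 10.8 kb downstream, at -3.39, -2.07, -3.24 and -3.44. Both carried a polyadenylation hexamer. The remaining 2 probes had ratios of -0.26 ± 0.26 and -0.56 ± 0.25 at 4 h, neither as low as -0.6.

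In 20 of the genes both probes were designed on 1 and the same transcript, and here the rising probe was the 3' one in 9. Neither count was made over all genes. In the nearest class, 2889 genes of 1 locus whose 2 probes share a listed transcript, the higher probe was 3' in 41.8%. Ppp1r2, an inhibitory subunit of protein phosphatase 1, had 5 measured probes on 1 transcript. From 3' to 5' their 4 h ratios were -0.87 ± 0.23, 0.70 ± 0.20, 1.11 ± 0.20, 1.17 ± 0.20 and 0.53 ± 0.21. Only the most 3' probe was down, at -2.13, -3.00, -2.57 and -2.27, and it lay 2.5 kb beyond the next. The rising probe was at -0.29, 0.87, -0.11 and -0.24.

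Ipmk encodes an inositol polyphosphate kinase. Its falling probe was at 1.96, 0.51, 2.04 and 2.29 and its rising probe, 4.5 kb upstream, at -3.01, -2.09, -2.46 and -2.38. Siglecg, a sialic acid-binding receptor gene of B cells, was the widest of the same-transcript pairs among the 20 genes of largest opposition. Its falling probe spans an exon junction and was at 0.61, -1.09, 0.03 and 0.66, and its rising probe, 3.5 kb upstream, at -2.05, -1.21, -2.72 and -2.17.

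Rgs12, a GTPase-activating protein for G protein subunits, had 3 measured probes within 1.3 kb. The rising one was at -3.87, -3.06, -3.78 and -3.74 and the falling one at -2.16, -2.97, -2.38 and -2.23. The remaining one had a ratio of -0.52 ± 0.20, down but short of the threshold. In Lrsam1, a ubiquitin ligase gene, 2 probes whose starts were 5 bases apart, and which therefore share most of their bases, had 4 h ratios of -1.25 ± 0.21 and -0.50 ± 0.20. That difference between overlapping probes of 1 transcript is 0.75, more than either spot error.

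The remaining genes are given by their roles. Signaling and cytoskeletal genes were the largest group with 15, and besides those above they were Ppp2ca, the catalytic subunit of protein phosphatase 2A, Mylk, myosin light chain kinase, the kinase Map4k2, the inositol kinase Itpkb, the guanine nucleotide exchange factor Kalrn, the ephrin receptor Epha7, the ATP-gated channel P2rx7, Raph1 and Fnta. Their rising probes ran from 0.66 to 1.61 and their falling probes from -2.02, in Kalrn, to -0.62, and the rising probe was 3' in 5 of 15. Transcription and chromatin genes numbered 14, with the rising probe 3' in 10, and added Zxdc, Setdb2, Zfp867, Zfp672, Zfp945 and AI846148, now Spindoc. Setdb2, of a histone methyltransferase family, had the second lowest falling probe of all, at -1.40, -3.64, -1.45 and -1.49.

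Membrane traffic and protein turnover held 6 genes, Chmp3, Ap3b2, the exocyst gene Exoc6b, the translocon gene Sec63, the cullin regulator Cand1 and Lrsam1. Of these only Chmp3 had its rising probe on the 3' side. Metabolism, transport and mitochondria held 6 of the genes described, namely Slc38a6, Cox16, Auh, the mitochondrial peptidase subunit Pmpca, Dnlz and the sialyltransferase St6galnac4, with 3 on the 3' side. Besides Terf2, the chromosome genes were Pttg1, which encodes securin, and the condensin II subunit Ncaph2. In Pttg1 the rising probe went from -2.20 to -1.15 and the falling probe from 2.47 to 1.77, 761 bases downstream. The matrix genes were the basement membrane collagen Col4a4 and the protease inhibitor Reck, and Wdr18, Gm13547 and 4922501C03Rik, now Cep162, were left with Agbl3 and 2210404J11Rik.

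These roles were assigned to the genes after they were known. Of the 423 genes on the 12 lists, 145 had 2 or more measured probes and 3 were among the 59, namely Luc7l3, Cstf3 and Wdr33, where the share over all 3688 genes was 1.60%. None of the genes listed for the circadian clock, the heat shock response, antioxidant defense, NF-kappa-B and apoptosis, the unfolded protein response, p53 targets, mitosis, the cytoskeleton, ubiquitin ligases or CK2 was, from 7, 7, 11, 13, 4, 5, 7, 23, 15 and 2 genes with 2 or more measured probes, respectively. At a share of 1.60%, lists of this size hold less than 1 such gene on average, so nothing is read from their absence. In the CK2 list, the catalytic subunit gene Csnk2a2 had probes at 1.61 and -0.44, a gap change of 2.04 ± 0.29 that missed the threshold on the falling side.

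All 59 pairs lay on 1 chromosome and strand within 500 kb, at a median distance of 10.8 kb, from 182 bases in Fnta to 214.9 kb in Exoc6b. Over all genes with 2 or more measured probes the median distance was 2.05 kb. A listed transcript was shared by both probes in 23 of the 59, or 39.0%, against 79.3% of all such genes. The lists name at most 5 accessions a probe, so an absent shared transcript can be an unlisted one. The rising probe was 3' of the falling one in 34 of the 59, or 57.6%, whereas among all 3629 genes of 1 locus the higher probe was 3' in 42.8%. That share was 23 of 36 without a shared transcript and 11 of 23 with one. It was 39.5% at a threshold of 0.4 and 39.1% with the 20 h array in place of the control, so it did not hold across the settings tried.

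**Figure D3:**
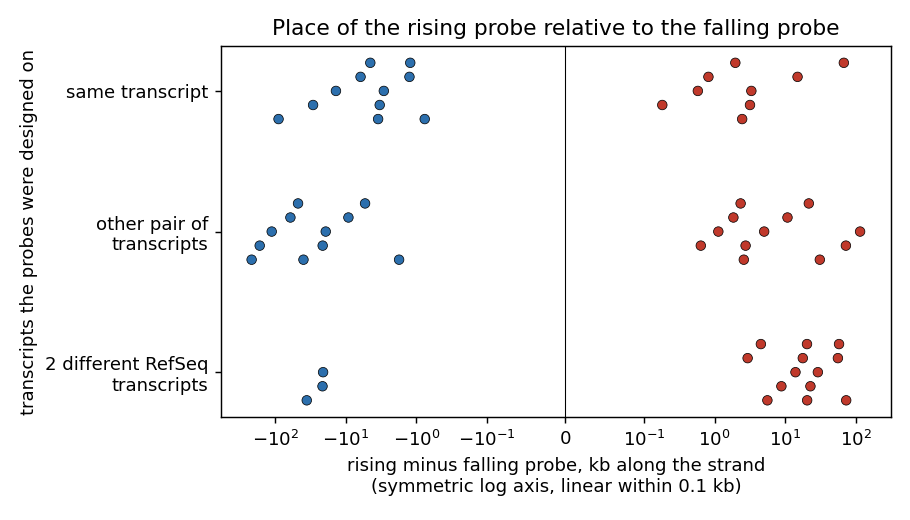
Each point is 1 of the 59 genes, placed by how far its rising probe lies from its falling probe along the strand in kb (x axis, symmetric log scale), with positive values, in red, where the rising probe is nearer the 3' end. Rows split the genes by the transcripts the probes were designed on. In the pairs on 2 different RefSeq transcripts 13 of 16 points are positive, and in pairs on the same transcript 9 of 20. Over all genes the first class had 174 of 370, and no such count was made for the second. With the 20 h array in place of the control the first class had 6 of 12.

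The bases of the probes set rising and falling ones little apart. The median GC content was 41.7% for both. AATAAA or ATTAAA, searched on the printed strand, was held by 12 of the 59 falling probes (20.3%) and 7 of the 59 rising probes (11.9%), and by 18.9% of all 20392 measured probes. ATTTA, the core of AU-rich elements, was held by 7 falling and 4 rising probes, or 11.9% and 6.78%, against 7.79% of all. AATAAA stood in 14.4% of measured probes and its reverse complement TTTATT in 4.16%. A probe across an exon junction was rising in 2 genes (3.39%) and falling in 4 (6.78%). Over all 3688 genes, 5.88% of the highest and 5.12% of the lowest probes crossed one. Of the 118 probes, 93 listed an accession found in the RefSeq gene table (GRCm38.p6, used for names only), and 0 listed one of another gene.

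In 22 genes 3 or more probes were measured, which gave 28 further probes. Of these, 7 had a 4 h ratio of at least 0.6, 6 had one of -0.6 or lower, and 15 lay between. Over all 20392 measured probes the first 2 shares were 21.0% and 16.1%, so the counts are not read as backing for the chosen probes. A second probe on the rising side was seen in several genes, among them Trib1, Dido1, Terf2, Zfp467 and Ppp1r2. On the falling side, a second one was seen in 4922501C03Rik, Hbs1l, Mta3, Stau2, Tsc22d4 and Zfp467. Zfp467 was thus the gene with 2 probes on either side.

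The arrays at 20 h and 32 h took no part in choosing the genes, though their ratios share the 4 h control with the 4 h ratio and have no control of their own time. Both probes were well above background on all 4 arrays in 50 of the 59 genes. In these the median gap change from the control was 0.22 at 20 h and 0.18 at 32 h, after 1.90 at 4 h. It was within 2 spot errors of 0 in 41 of the 50 at 20 h and likewise in 41 at 32 h. In the other 3493 genes measured on all arrays the median was 0.06 and 0.04. Counts against spot errors were not made for these 3493 genes, so those for the 50 have no share beside them. No member met the opposition rule at 20 h or at 32 h, where 0.0798% and 0.0548% of genes with 2 or more measured probes did.

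A gap change over 2 spot errors at both later times was found in 5 of the 50 genes. Whether that is many cannot be said, as the count was not made for other genes. Map4k2, a germinal center kinase, had nearly the same gap change each time, at 1.89 ± 0.36, 1.84 ± 0.36 and 1.85 ± 0.42 after 4 h, 20 h and 32 h. Its rising probe was at -1.48, -0.74, -0.95 and -1.02 and its falling probe at -3.02, -4.17, -4.33 and -4.41, so the control array stood apart from the 3 others. In Terf2 the gap change was 2.09 ± 0.29, 0.80 ± 0.29 and 0.79 ± 0.29. Hbs1l and Mta3 were also among them. Outside the 50, Trib1 was at 3.33 ± 0.36 at 20 h. In Mylk the gap had turned, at -1.31 ± 0.33 and -0.85 ± 0.35. Its rising probe was lower than in the control on both later arrays, at ratios of -0.96 and -0.66, and its falling probe higher, at 0.36 and 0.20.

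**Figure D4:**
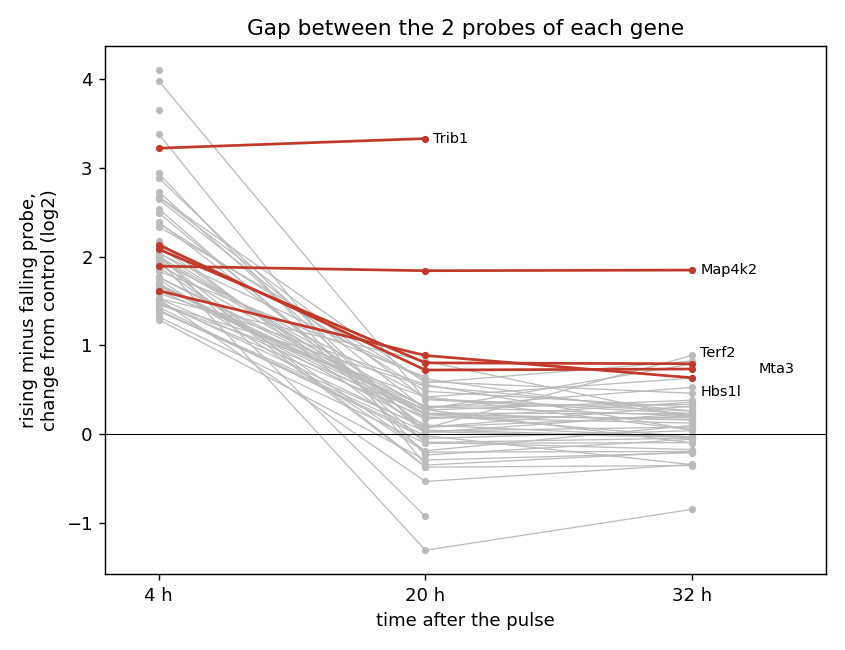
The change from the control in the difference between rising and falling probe (y axis, log2) is joined across 4 h, 20 h and 32 h after the pulse (x axis) for 58 of the 59 genes, with points left out where a probe was not well above background. Map4k2, Terf2, Hbs1l and Mta3, over 2 spot errors at both later times, and Trib1 at 20 h, are in red. Most lines drop from 4 h, where the median of the 59 was 1.94, to near 0.

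Between 20 h and 32 h, 2 arrays that the rule did not use and that share no control, the probe pairs hardly moved against each other. The median size of the shift was 0.14 in the 50 genes and 0.10 in all 3543 genes measured on all arrays. A shift of at least 0.6 was seen in 2 of the 50, Zfp867 and Itpkb, and in 2.20% of all 3543. No gene on the array had probes past 0.6 both ways between these arrays (0% of 3715).

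With a later array in place of the control, the same 2 probes opposed each other past the threshold in 22 of the 59 genes against 20 h and in 24 against 32 h. In 16 genes they did so against the control, 20 h and 32 h alike, namely Dido1, Stau2, Hbp1, Slc38a6, Siglecg, Ppp2ca, 2210404J11Rik, Mylk, Zxdc, Zfp672, Pttg1, Wdr33, 4922501C03Rik, Kalrn, Fastk and Col4a4. These comparisons share the 4 h array, and the pairs were chosen for their extreme values on it. No such count was made over all genes, so the counts lend the choice of genes no support.

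At the edge of the rule, Fnta, a subunit of protein prenyltransferases, entered with 0.77 ± 0.21 and -0.62 ± 0.20, and Reck with 0.69 ± 0.27 and -0.63 ± 0.22. The probes of Fnta were at -1.79, -1.02, -1.86 and -1.94 and at 2.90, 2.28, 2.81 and 2.80, only 182 bases apart on 1 transcript. Just outside were Srsf1 at 0.69 ± 0.20 and -0.59 ± 0.20 and 6330408A02Rik at 0.59 ± 0.20 and -0.78 ± 0.26. These 4 genes differ from the threshold by less than their spot errors. The smaller of the 2 sizes had a median of 0.75 over the 59 genes, so many others also lay within a spot error of 0.6.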

How the data were processed

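RNA of 4 cultures was hybridized to 4 one-color Agilent arrays on 1 slide and read with Agilent Feature Extraction 10.7.3.1, per the labels. The authors deposited spot intensities of each array, already background-subtracted by that program, and a table of signal values, which equals the processed intensities divided by 1 constant an array. The members, gene lists and roles were chosen with earlier results of these data known.

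Here log2 processed intensities were averaged over the spots of a probe, leaving out outlier spots, and the 75th percentile of each array over non-control probes was subtracted. A probe was taken as measured if the scanner marked 50% or more of its spots well above background, on the control and the 4 h array alike. Strand was read from the order of the start and end coordinates (mm9). Genes described with all values were the 20 of largest opposition (the smaller of the 2 sizes), those on a gene list, those with 4 or more measured probes and those at the threshold. Zrsr2, Hbs1l, Fastk, Setdb2, Pttg1, Lrsam1, Map4k2, Mylk and Csnk2a2 were added after their values were seen. Of the 59 genes, 1 enters the counts but is not reported here. The methods' SAM test needs replicates and was not run. The script that applies the rule was tested on simulated data. Python 3.11.15, pandas 2.3.3, R 4.3.3 and limma 3.58.1 (normexp) were used. With 1 array a condition, the number of arrays limits the precision.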

Additional observations from a re-analysis of the deposited data

How the results depend on the processing

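The number of genes was 59 under the settings reported and 46 to 61 under the other scalings, but 30 after normexp correction with an offset of 50, where the rising probe was 3' in 76.7%. At a threshold of 0.4 there were 154 genes, with 39.5% and a median gap change of 1.49, and at a threshold of 1 there were 11, with 72.7% and 2.94. The positive and significant flag gave 160 genes. With both probes above the median signal there were 5, with 100% and 2.34, and taking a gap of at least 1.2 in place of the 2 thresholds gave 287 with 1.54. With the 20 h array as reference, chosen after seeing the data, the rising probe was 3' in 39.1% of the 64 genes of 1 locus. The cause of these differences was not tested. The median gap changes at 20 h and 32 h moved by less than the median spot error of a single gene's gap change under the 15 settings planned. That limit is larger than the medians themselves, 0.19 and 0.16, so a move to 0 would also have passed. Scalings by a constant cannot change a gap at all, so nothing is read from this. Of the 432 ratios recomputed for 54 named probes under 8 settings, 192 moved by more than their spot error, 240 did not and 0 reversed. Under scalings by a constant, the absence of reversals was set in advance by the threshold that chose the probes. The share of higher among all probe calls was 56.5% here and ran from 22.3% with spike-in scaling to 57.1% with normexp. With 1 array a group, no array could be left out. No paired analysis was possible because each group had 1 array.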
